A study of Mus musculus with 15 samples.

Results

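The muscle thin filament genes followed here encode actins, troponin subunits, tropomyosins and leiomodins. They are 10 of the 15258 genes measured in mouse left ventricle: Acta1, Actc1, Tnnt2, Tnni3, Tnni1, Tnnc1, Tpm1, Tpm2, Lmod2 and Lmod3, each taken by its symbol in the deposited files, where all 10 were listed. RNA came from the left ventricle of male C57BL/6NRj mice after transverse aortic constriction (TAC), in which a band on the aortic arch makes the ventricle pump against a higher load, or after a sham operation. Minipumps delivered neuregulin-1 (NRG1), a growth factor that signals through ERBB receptors of heart muscle cells, or saline. The 3 groups were TAC with NRG1 (TAC NRG), TAC with saline (TAC saline) and sham with saline (sham), with 5 libraries each, and all 15 samples fall in these groups, so NRG1 was compared after TAC only. The dose and duration of NRG1, the time after surgery and the age of the mice are not stated in the labels.

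In heart muscle, actin subunits polymerise into the thin filament, and tropomyosin lies along it with troponin complexes bound at regular intervals. Troponin C binds calcium, troponin I holds the filament in its inhibited state and troponin T ties the complex to tropomyosin, so that calcium lets myosin heads reach actin. Leiomodins nucleate actin and sit at the pointed end, where filament length is set. Return of Acta1, the actin of skeletal muscle and of the fetal heart, is a long-used marker of pressure overload in rodent ventricle, and slow skeletal troponin I (Tnni1) is replaced by cardiac troponin I (Tnni3) around birth in the mouse.

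The assay was BRB-seq, in which each RNA sample is barcoded, pooled and read from the 3′ ends of its transcripts. Levels are given as CPM, read counts scaled to a common library size by the authors' factors, without division by transcript length, since only transcript ends are read. Libraries held 2.02 to 5.62 M reads. Of all reads, 23.7% to 29.0% came from mitochondrially encoded genes in TAC NRG, 26.0% to 29.6% in TAC saline and 30.5% to 31.8% in sham. TAC NRG libraries 4 and 5 were the shallowest, with 2.02 and 2.13 M reads. The chi-square per degree of freedom was 2.27 between them, and 6.78 to 10.9 between either and libraries 1 to 3. Among the other 3 it was 2.81 between libraries 1 and 2, 4.73 between 1 and 3 and 8.62 between 2 and 3. This value grows with depth for the same difference, so a lower value in a shallower pair need not mean a closer match. The summed level of 8 ventricular muscle markers was 37168 to 49256 CPM in TAC NRG, 39980 to 50490 CPM in TAC saline and 47140 to 51758 CPM in sham, against at most 36.7 CPM in any library for the 4 of 6 atrial markers that the files list. Of 11 skeletal muscle markers, 4 were listed in the files, with sums of 1.22 to 7.64 CPM in TAC NRG, 2.02 to 2.75 CPM in TAC saline and 1.11 to 3.83 CPM in sham, and 1 of them, Myh4, held 0 reads in all 5 sham libraries. The labels do not name the animal behind a library, so p-values speak of the spread among these samples, which may in part be technical.

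Promoter sequence is shown for the 4 members that were higher in both TAC groups than in sham, Acta1, Actc1, Tnnc1 and Tpm2, and for Tnni3, which was lower in both. Each is the 250 bases before a RefSeq start site on GRCm38.p6, written 5′ to 3′ on the strand of the gene. Capitals mark matches on either strand to a CArG box, the motif of serum response factor, to the motif CATTCC, the core of the M-CAT element of TEAD factors (GGAATG on the other strand), or to TATAAA.
The windows lie at the following places: Acta1 at chr8:123894776-123895025 on the minus strand, Actc1 at chr2:114052876-114053125 on the minus strand, Tnnc1 at chr14:31208062-31208311 on the plus strand, Tpm2 at chr4:43523555-43523804 on the minus strand and Tnni3 at chr7:4522529-4522778 on the minus strand.
Acta1: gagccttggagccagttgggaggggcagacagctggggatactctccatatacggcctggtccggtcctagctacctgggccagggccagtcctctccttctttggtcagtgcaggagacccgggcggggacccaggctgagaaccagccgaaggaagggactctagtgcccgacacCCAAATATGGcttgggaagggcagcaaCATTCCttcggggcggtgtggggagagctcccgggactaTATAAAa
Actc1: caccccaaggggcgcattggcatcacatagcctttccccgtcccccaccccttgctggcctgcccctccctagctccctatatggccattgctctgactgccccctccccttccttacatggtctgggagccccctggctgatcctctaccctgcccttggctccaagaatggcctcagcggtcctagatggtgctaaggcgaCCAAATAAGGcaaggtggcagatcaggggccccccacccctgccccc
Tnnc1: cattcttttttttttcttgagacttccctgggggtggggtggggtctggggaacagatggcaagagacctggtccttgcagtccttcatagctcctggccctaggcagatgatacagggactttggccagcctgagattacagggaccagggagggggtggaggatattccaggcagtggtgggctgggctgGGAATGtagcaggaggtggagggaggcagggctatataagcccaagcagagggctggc
Tpm2: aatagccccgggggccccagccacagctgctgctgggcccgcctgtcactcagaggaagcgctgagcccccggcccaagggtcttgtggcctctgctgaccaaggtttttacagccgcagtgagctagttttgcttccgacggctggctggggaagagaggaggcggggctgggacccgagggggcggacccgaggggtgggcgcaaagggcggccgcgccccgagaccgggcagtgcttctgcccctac
Tnni3: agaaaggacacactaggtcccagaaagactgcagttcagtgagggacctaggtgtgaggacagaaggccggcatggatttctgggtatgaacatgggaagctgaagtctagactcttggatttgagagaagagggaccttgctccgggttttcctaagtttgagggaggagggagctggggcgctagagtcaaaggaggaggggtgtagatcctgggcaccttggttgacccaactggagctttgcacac
The CArG box occurred once in the Acta1 window, at position -73 from the start site, and once in the Actc1 window, at position -47. Only 1.47% of 32851 windows of the same length in the same table held one, and among the 9 members with a window these 2 were the members that did. CATTCC began at position -46 in Acta1 and was also found in the windows of Tnnt2 at -27, Tnnc1 at -58 and Tpm1 at -56, against 12.6% of all windows. TATAAA began at position -7, close before the Acta1 start site, and 12.4% of all windows held that motif. Positions count from the RefSeq start site, which was not checked. A MEF2 box, the motif of myocyte enhancer factors, was found in 0 of the members' 11 windows and in 0.508% of all windows. No marked match overlapped another. A match describes these letters and does not show that a factor binds there.

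Across the 9 members with enough reads to test, 5 differed between TAC saline and sham, 2 between TAC NRG and TAC saline and 6 between TAC NRG and sham (limma, adjusted p under 0.05 over all 11018 genes tested). Tnni1 had too few reads to test. In TAC saline against sham, 4 members were higher and 1 lower, where 10.7% of all genes tested passed the threshold, 6.47% higher and 4.24% lower. In TAC NRG against TAC saline, 1 was higher and 1 lower, where 1.30% of genes passed, 0.672% higher and 0.626% lower. In TAC NRG against sham, 4 were higher and 2 lower, where 16.1% of genes passed, 8.74% higher and 7.39% lower. Scaling by total reads alone moved the split over all genes to 1078 higher and 191 lower in TAC saline against sham, from 713 and 467 on the authors' scaling, and to 1364 and 434 in TAC NRG against sham, from 963 and 814. Limma voom, which was run on the same total reads, gave 1087 and 209, and 1235 and 413. Median-of-ratios scaling stayed near the authors' split, at 714 and 467, and 977 and 804. With mitochondrial genes left out of the library total, it was 780 and 332, and 861 and 880. The members that passed on the authors' scaling were also those whose groups did not overlap, which held for 8.40%, 3.06% and 11.7% of all genes in the same 3 comparisons. The median log2 fold change of the 9 members was 0.17, 0.06 and 0.17 in these comparisons, beside -0.01 over all genes in each. Because this is bulk tissue, fewer cells of a type and less RNA per cell cannot be told apart.

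**Figure D1:**
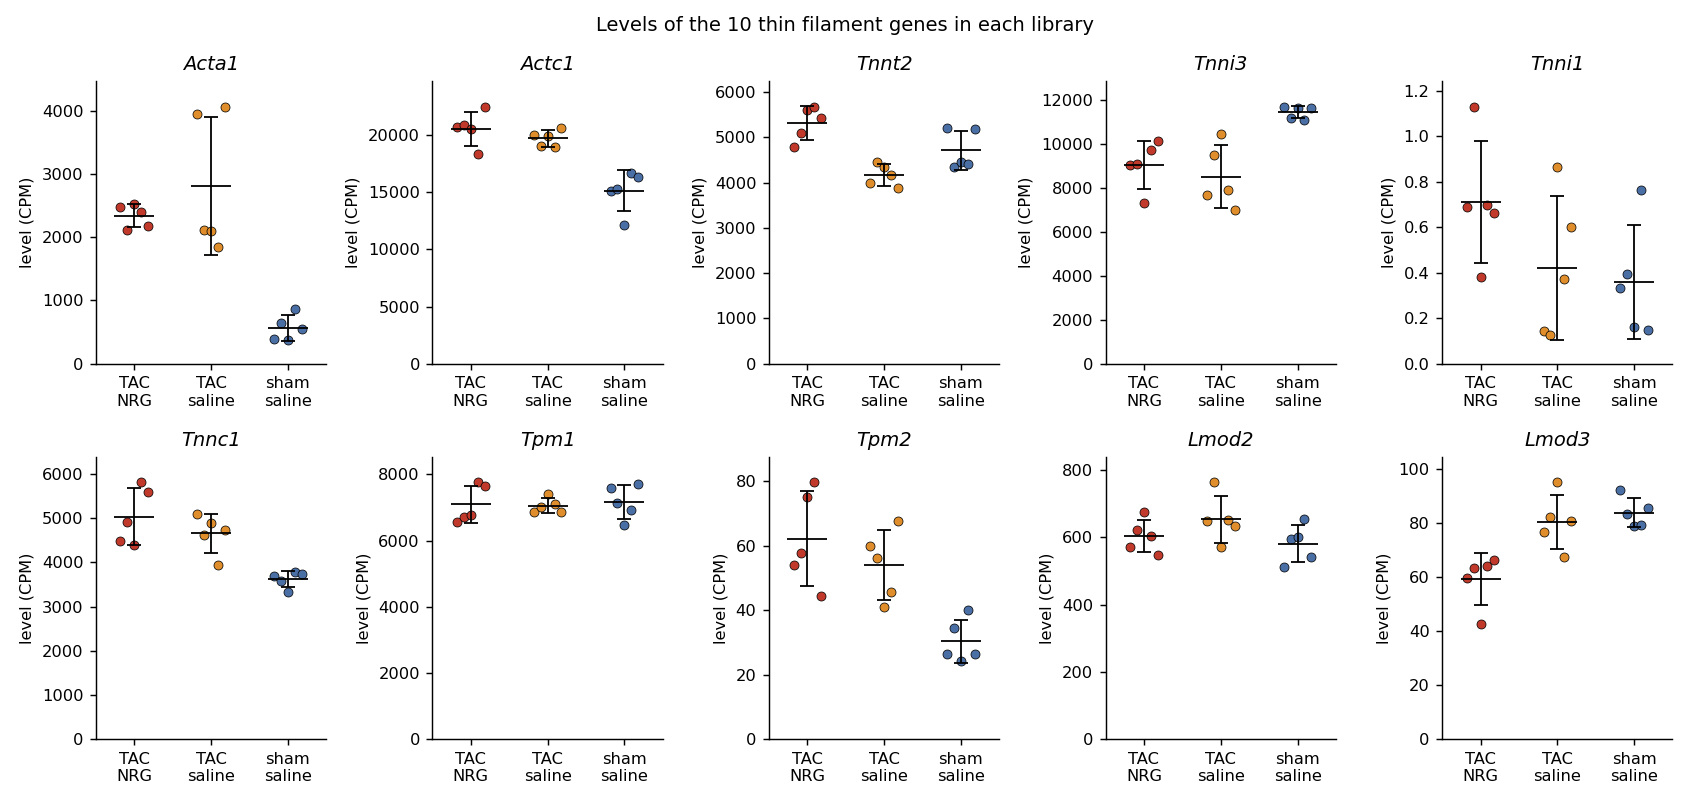
Level in CPM of each of the 10 genes, by group, with 1 point per library, a horizontal bar for the mean and an error bar of 1 SD (n = 5 per group), on linear axes from 0. Acta1 reached 1845 to 4064 CPM in the TAC saline libraries and 2120 to 2522 CPM in the TAC NRG libraries, against at most 860 CPM in sham, while Tnni1 stayed near 1 CPM or below in every library.

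Among the actins, the skeletal isoform showed the widest difference of any member and the cardiac isoform a modest one in the same direction. Acta1, which encodes skeletal alpha actin, was at 2473, 2120, 2522, 2402 and 2183 CPM in TAC NRG libraries 1 to 5, at 3951, 2109, 2103, 1845 and 4064 CPM in TAC saline libraries 1 to 5, and at 387, 651, 375, 860 and 551 CPM in sham libraries 1 to 5. Every TAC library lay above every sham library, while the TAC NRG values all fell inside the range of TAC saline. Acta1 rose 4.94-fold in TAC saline against sham, a log2 fold change of 2.30 ± 0.20 (SE, limma adjusted p = 2.87e-07), and had the smallest p of all 11018 genes. Acta1 also rose 4.34-fold in TAC NRG against sham (2.12 ± 0.20, adjusted p = 1.23e-07). Between TAC NRG and TAC saline the log2 difference was -0.18 ± 0.20, with a 95% interval of -0.60 to 0.23 (adjusted p = 0.712).

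Acta1 was uneven within TAC saline. Libraries 1 and 5 stood well above the other 3, and the SD was 1095 CPM around a mean of 2814 CPM, a coefficient of variation of 38.9%. In TAC NRG the SD was 179 CPM around 2340 CPM, or 7.64%, and in sham 201 CPM around 565 CPM, or 35.6%. With TAC saline library 1 left out, the log2 fold change against sham was 2.16, and with library 5 left out it was 2.15. Libraries 1 and 5 were also the pair of TAC saline with the lowest chi-square per degree of freedom, at 2.30. Their shares of mitochondrial reads were 26.6% and 26.0%, beside 26.9% to 29.6% in the other 3, and the part of this in the Acta1 values was not tested. The 4 skeletal muscle markers listed in the files summed to at most 7.64 CPM in any library, and a part of skeletal tissue in the Acta1 values was not tested.

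Actc1, the cardiac alpha actin that makes up most thin filament actin in the adult heart, was at 20685, 20902, 20495, 18313 and 22486 CPM in TAC NRG libraries 1 to 5, at 20010, 19053, 19939, 18934 and 20601 CPM in TAC saline, and at 15141, 15257, 12135, 16694 and 16367 CPM in sham. Both TAC groups lay wholly above sham and overlapped each other. The rise against sham was 1.31-fold in TAC saline (0.39 ± 0.10, adjusted p = 0.0151) and 1.37-fold in TAC NRG (0.45 ± 0.10, adjusted p = 0.00366). Sham library 3 was the lowest, and without it the TAC saline rise was 0.31 with an adjusted p of 0.0658. With no filter on low values the adjusted p was 0.0655. Between the TAC groups the log2 difference was 0.06 ± 0.10 (95% interval -0.15 to 0.27).

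The balance of the actin isoforms moved toward Acta1 in both TAC groups. Acta1 took 10.3% ± 1.18 of the reads of the 2 genes in TAC NRG, 12.3% ± 3.87 in TAC saline and 3.55% ± 0.95 in sham (SD, n = 5 each). The exact binomial 95% interval of the share in a single library, which covers counting error only, spanned at most 0.298 percentage points to either side, less than the SD between libraries in each group. Per library the ratio of Acta1 to Actc1 was 0.120, 0.101, 0.123, 0.131 and 0.0971 in TAC NRG, 0.197, 0.111, 0.105, 0.0975 and 0.197 in TAC saline, and 0.0256, 0.0427, 0.0309, 0.0515 and 0.0337 in sham. No TAC value reached down to the highest sham value. On the log2 scale the ratio was 1.91 higher in TAC saline than in sham, or 3.76-fold, and 1.67 higher in TAC NRG than in sham, or 3.18-fold. Each had an exact two-sided permutation p = 0.0079, the smallest that 5 against 5 libraries can give (adjusted p = 0.0317 over 12 ratio comparisons). Without sham library 1, 2, 3 or 5 the adjusted p was 0.0635 for both, where fewer libraries also raise the smallest p that can be reached. TAC NRG and TAC saline differed by -0.24 (exact permutation p = 0.373, adjusted p = 0.433).

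**Figure D2:**
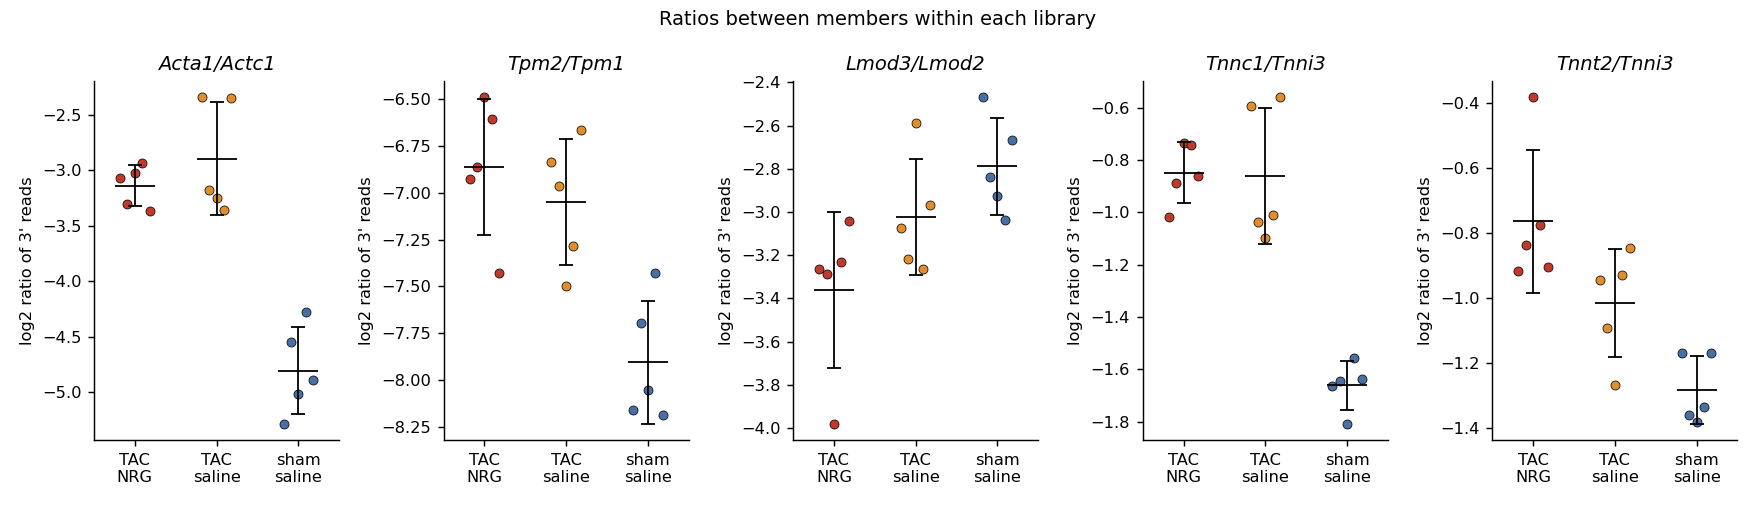
Log2 ratio of the 3′ reads of gene pairs within each library, by group, with 1 point per library, a bar for the mean and an error bar of 1 SD (n = 5 per group). The Acta1 to Actc1 ratio was between -3.36 and -2.34 in the TAC libraries and between -5.29 and -4.28 in sham, and the Tnnc1 to Tnni3 ratio was likewise above every sham value in all TAC libraries.

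The troponin subunits moved in different directions. Tnnc1, which encodes the calcium-binding subunit of cardiac and slow muscle, was at 4475, 4909, 4390, 5806 and 5591 CPM in TAC NRG libraries 1 to 5, at 5098, 4629, 4900, 3938 and 4732 CPM in TAC saline and at 3700, 3582, 3322, 3783 and 3748 CPM in sham. All TAC values were above all sham values, and TAC NRG libraries 4 and 5 were the highest of their group. Tnnc1 rose 1.28-fold in TAC saline (0.36 ± 0.09, adjusted p = 0.0133) and 1.38-fold in TAC NRG (0.47 ± 0.09, adjusted p = 0.00102) against sham. Leaving out TAC saline library 1 gave 0.32 for TAC saline, with an adjusted p of 0.0514, and leaving out TAC NRG libraries 4 and 5 gave 0.34 for TAC NRG (adjusted p = 0.0167). Between TAC NRG and TAC saline the difference was 0.11 ± 0.09 (95% interval -0.08 to 0.30).

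Tnni3, the cardiac inhibitory subunit and the target of beta-adrenergic phosphorylation, went the other way. It was at 9063, 9085, 7310, 9717 and 10160 CPM in TAC NRG libraries 1 to 5, at 7705, 9490, 10481, 7934 and 6982 CPM in TAC saline and at 11709, 11185, 11639, 11118 and 11648 CPM in sham. The 5 sham libraries lay within a narrow band, with a coefficient of variation of 2.48%, and every TAC library lay below it. Tnni3 fell by 0.44 ± 0.11 on the log2 scale in TAC saline (adjusted p = 0.00944) and by 0.35 ± 0.11 in TAC NRG (adjusted p = 0.0314) against sham. The TAC NRG call had an adjusted p between 0.0157 and 0.0778 when a single library was left out, and missed the threshold without sham library 1, 2, 3 or 5 or without TAC NRG library 1 or 3. It also missed it with no filter on low values (adjusted p = 0.0693) and without a trend of the spread with level (adjusted p = 0.0667). TAC saline libraries 5 and 1, the highest for Acta1, were the lowest for Tnni3 in their group. The difference between the TAC groups was 0.10 ± 0.11 (95% interval -0.13 to 0.32).

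Tnnt2, the cardiac troponin T that anchors the complex to tropomyosin, was 1 of the 2 members that differed between the TAC groups. It was at 4794, 5086, 5609, 5677 and 5421 CPM in TAC NRG libraries 1 to 5, at 4003, 4450, 4351, 4165 and 3883 CPM in TAC saline and at 5201, 4352, 4466, 4403 and 5178 CPM in sham. The lowest TAC NRG library was above the highest TAC saline library, and sham spread over both ranges. Tnnt2 rose 1.27-fold in TAC NRG against TAC saline (0.35 ± 0.08, adjusted p = 0.0351). That call did not hold in every setting: with 1 library left out the adjusted p was between 0.0257 and 0.108, above the threshold without TAC saline library 1, 4 or 5 or TAC NRG library 4 or 5. Without TAC NRG libraries 4 and 5 together the value was 0.31 ± 0.09 with an adjusted p of 0.187. The adjusted p was 0.0805 with no filter on low values, 0.130 without a trend of the spread and 0.101 with only the 2 groups compared.

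Against sham, Tnnt2 did not pass in either TAC group, at -0.18 ± 0.08 in TAC saline (95% interval -0.35 to -0.00, adjusted p = 0.196) and 0.17 ± 0.08 in TAC NRG (0.00 to 0.35, adjusted p = 0.168). With total reads as the only scaling, which moved the median of all genes by 0.11 in TAC saline and 0.09 in TAC NRG against sham, the TAC NRG value was 0.27 and passed (adjusted p = 0.0148). All 5 blood markers rose in TAC NRG against TAC saline, with sums of 1703 to 3488 CPM, against 980 to 1474 CPM in TAC saline and 905 to 2222 CPM in sham, and their part in the Tnnt2 difference was not tested. The sums of 5 endothelial markers did not overlap either, at 388 to 455 CPM in TAC NRG and 469 to 546 CPM in TAC saline, and 1 of them, the endothelial cadherin Cdh5, was lower in TAC NRG (adjusted p = 0.0157). Their part in the Tnnt2 and Lmod3 differences was likewise not tested.

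Tnni1, the slow skeletal inhibitory subunit of the fetal heart, was at the limit of what this depth detects. It had 2, 6, 1, 1 and 1 reads in TAC NRG libraries 1 to 5, 0, 0, 2, 1 and 2 reads in TAC saline and 1, 1, 0, 2 and 0 reads in sham. The sums over 5 libraries were 11, 5 and 4 reads, and every library except TAC NRG library 2 was under 3 reads, the limit that a count of 0 allows, or 0.534 to 1.49 CPM by total reads. No fold change of its level is given at this depth. The log2 ratio of Tnni1 to Tnni3 had an exact permutation p of 0.0238 in TAC NRG against sham (adjusted p = 0.0476), of 0.444 in TAC saline against sham and of 0.190 in TAC NRG against TAC saline (adjusted p = 0.254), and these values rest on single reads. The call against sham was lost when any single TAC NRG library, or sham library 1, 2, 3 or 5, was left out (adjusted p between 0.0635 and 0.0952). Tnni1 made up at most 0.0115% of the reads of Tnni1 and Tnni3 in any library.

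With Tnnc1 higher and Tnni3 lower after TAC, their ratio stood apart from sham in every TAC library. It was 0.494, 0.540, 0.601, 0.597 and 0.550 in TAC NRG libraries 1 to 5, 0.662, 0.488, 0.468, 0.496 and 0.678 in TAC saline and 0.316, 0.320, 0.285, 0.340 and 0.322 in sham. The lowest TAC ratio was 0.468 and the highest sham ratio 0.340. The means were 0.557 ± 0.044, 0.558 ± 0.102 and 0.317 ± 0.020 in the same order of groups (SD, n = 5 each). This pair was picked after the levels had been seen, so the ratio is given as a description with no test. TAC saline libraries 1 and 5, the highest for Acta1, were again the highest of all.

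The tropomyosins divided into a steady main form and a minor form that was higher after TAC. Tpm1, which encodes alpha tropomyosin, the main tropomyosin of the mouse ventricle, was at 6577, 6729, 6768, 7760 and 7664 CPM in TAC NRG libraries 1 to 5, at 6856, 7014, 7406, 7113 and 6881 CPM in TAC saline and at 7603, 7137, 6473, 6919 and 7711 CPM in sham. The 3 groups overlapped throughout. Log2 differences were -0.02 ± 0.08 for TAC saline against sham (95% interval -0.19 to 0.15), 0.01 ± 0.08 for TAC NRG against TAC saline (-0.17 to 0.18) and -0.01 ± 0.08 for TAC NRG against sham (-0.19 to 0.16).

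Tpm2, which encodes beta tropomyosin, a form of the fetal heart and of slow skeletal muscle, was at 54.0, 57.8, 75.3, 79.6 and 44.4 CPM in TAC NRG libraries 1 to 5, at 60.0, 56.1, 41.0, 45.6 and 67.7 CPM in TAC saline and at 26.6, 34.4, 24.4, 40.1 and 26.5 CPM in sham. The lowest TAC value, 41.0 CPM, was just above the highest sham value, 40.1 CPM. Tpm2 rose 1.78-fold in TAC saline (0.83 ± 0.16, adjusted p = 0.00144) and 2.04-fold in TAC NRG (1.03 ± 0.16, adjusted p = 8.83e-05) against sham. The difference between TAC NRG and TAC saline was 0.19 ± 0.16 (95% interval -0.14 to 0.52). These values rest on 76 to 332 reads per library, so counting error is larger here than for the other 3 genes that rose. The summed level of 6 smooth muscle markers was 209 to 389 CPM in TAC NRG and 222 to 325 CPM in TAC saline. In sham it was 154 to 293 CPM, and the part of smooth muscle in the Tpm2 level was not tested.

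As a share of the reads of both tropomyosins, Tpm2 was 0.870% ± 0.203 in TAC NRG, 0.763% ± 0.171 in TAC saline and 0.423% ± 0.101 in sham (SD, n = 5 each). The log2 ratio of Tpm2 to Tpm1 was 0.85 higher in TAC saline and 1.04 higher in TAC NRG than in sham, each with an exact permutation p = 0.0159 (adjusted p = 0.0381). Both calls were lost without sham library 1, 2, 3 or 5, the TAC saline call without TAC saline library 1, 2, 4 or 5, and the TAC NRG call without TAC NRG library 1, 2, 3 or 4 (adjusted p between 0.0635 and 0.0762). It differed by 0.19 between TAC NRG and TAC saline (exact permutation p = 0.397, adjusted p = 0.433). Unlike the level, this ratio overlapped sham in both TAC groups: the lowest was -7.50 in TAC saline and -7.43 in TAC NRG, against a highest of -7.43 in sham. Within TAC saline, libraries 5, 1 and 2 held the 3 highest values of Tpm2 in that order, which was also their order for Acta1, and within sham, libraries 4 and 2 were the highest for both genes. Within TAC NRG the orders did not match, with library 3 highest for Acta1 and library 4 for Tpm2.

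**Figure D3:**
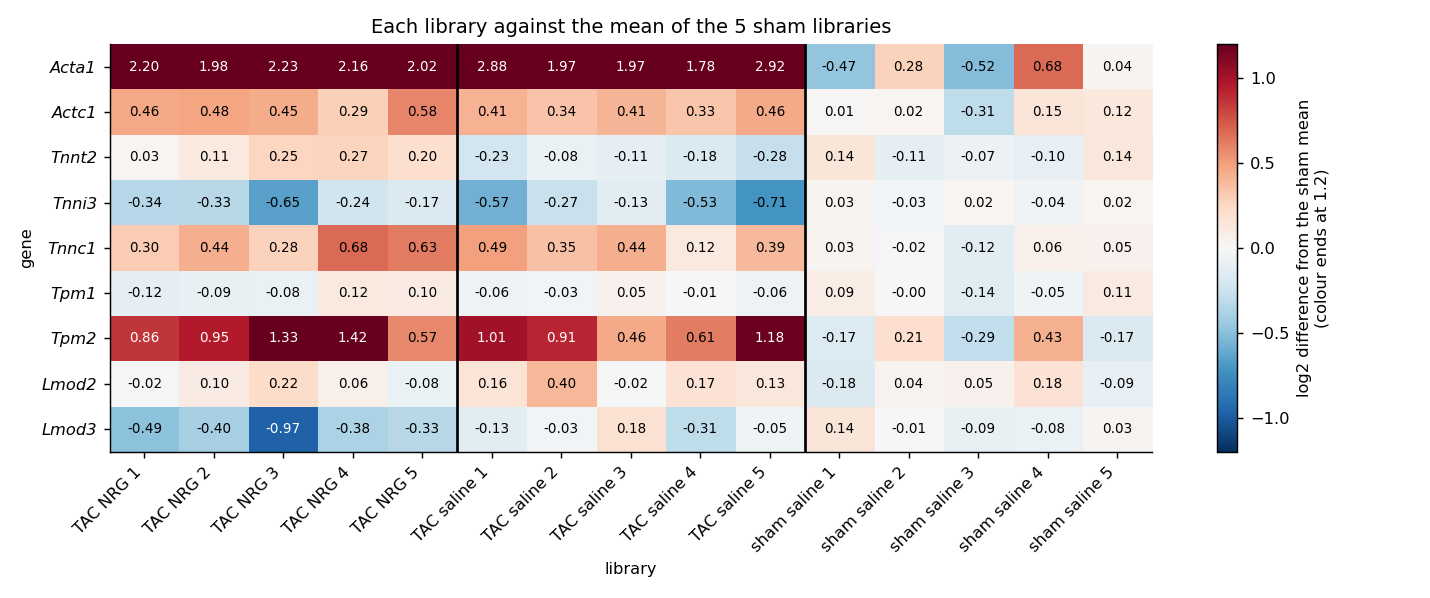
Log2 difference of each library from the mean of the 5 sham libraries for the 9 tested members, libraries in columns grouped as TAC NRG, TAC saline and sham, with the colour scale ending at 1.2. Acta1 ran from 1.78 to 2.92 in the TAC libraries, Tpm2 from 0.46 to 1.42 and Tnni3 from -0.71 to -0.13, whereas Lmod3 was lowest in TAC NRG library 3 at -0.97.

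The leiomodins also differed from each other. Lmod2, the main cardiac leiomodin, which elongates thin filaments in the mouse heart, was at 572, 621, 674, 604 and 547 CPM in TAC NRG libraries 1 to 5, at 647, 763, 571, 650 and 634 CPM in TAC saline and at 512, 594, 600.5, 653 and 542 CPM in sham. All groups overlapped. The log2 differences were 0.17 ± 0.08 for TAC saline against sham (95% interval -0.00 to 0.34, adjusted p = 0.214), -0.11 ± 0.08 for TAC NRG against TAC saline (-0.28 to 0.06, adjusted p = 0.563) and 0.06 ± 0.08 for TAC NRG against sham (-0.11 to 0.23, adjusted p = 0.700). With total reads as the only scaling, TAC saline against sham was 0.28 and passed (adjusted p = 0.0392).

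Lmod3, a leiomodin known mainly from skeletal muscle, where its loss causes nemaline myopathy, was lower in TAC NRG than in both saline groups. It was at 59.6, 63.6, 42.7, 64.3 and 66.5 CPM in TAC NRG libraries 1 to 5, at 76.8, 82.1, 95.1, 67.6 and 80.9 CPM in TAC saline and at 92.4, 83.2, 79.0, 79.5 and 85.4 CPM in sham. No TAC NRG value reached the lowest TAC saline value, though the gap was narrow, and TAC saline and sham overlapped. Against TAC saline it fell by 0.45 ± 0.11 on the log2 scale in TAC NRG (adjusted p = 0.0391), and against sham by 0.52 ± 0.11 (adjusted p = 0.00196). TAC saline against sham gave -0.07 ± 0.11 (95% interval -0.29 to 0.16, adjusted p = 0.783).

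The fall against sham held with any single library left out (adjusted p between 0.00141 and 0.00823). The fall against TAC saline did not hold in every setting. Its adjusted p was between 0.0270 and 0.0825 with 1 library left out, and above the threshold without sham library 4, TAC saline library 1, 2, 3 or 5, or TAC NRG library 1, 3 or 4. Without TAC NRG library 3, the lowest, the difference was -0.33, and without TAC NRG libraries 4 and 5 together it was -0.55 (adjusted p = 0.0353). The adjusted p was 0.157 without a trend of the spread, 0.103 with only the 2 groups compared and 0.0632 with libraries thinned to the fewest reads. Read numbers were 138 to 415 per library.

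The log2 ratio of Lmod3 to Lmod2 differed by -0.57 between TAC NRG and sham, with an exact permutation p = 0.0079 (adjusted p = 0.0317) and a narrow gap between the highest TAC NRG library, at -3.041, and the lowest sham library, at -3.038. Without sham library 1, 2, 3 or 5 the adjusted p was 0.0635. It differed by -0.34 between TAC NRG and TAC saline (exact permutation p = 0.111, adjusted p = 0.190) and by -0.24 between TAC saline and sham (exact permutation p = 0.167, adjusted p = 0.250). In reads, Lmod3 was 9.01% ± 1.82 of both leiomodins in TAC NRG, 11.1% ± 1.94 in TAC saline and 12.7% ± 1.76 in sham (SD, n = 5 each).

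**Figure D4:**
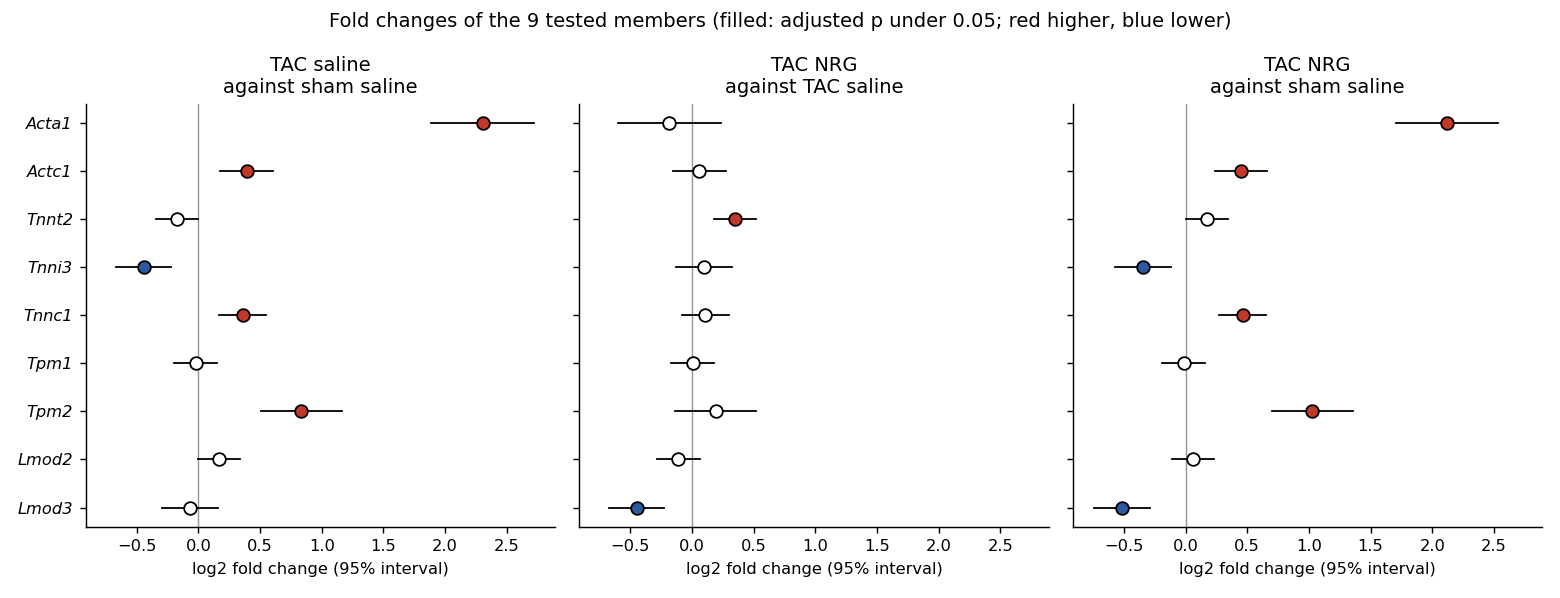
Log2 fold change (point) and 95% interval (line) from limma for the 9 tested members in the 3 comparisons, with filled points past an adjusted p of 0.05, red for higher and blue for lower. Acta1 lay at 2.30 and 2.12 against sham in TAC saline and TAC NRG, and between the TAC groups the filled points were Tnnt2 at 0.35 and Lmod3 at -0.45.

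Together the 10 genes took 5.36% ± 0.26 of all reads in TAC NRG, 5.16% ± 0.23 in TAC saline and 4.34% ± 0.24 in sham (SD, n = 5 each). Outside the mitochondrial genes the shares were 7.22% ± 0.18, 7.13% ± 0.24 and 6.30% ± 0.34 in the same order. The lowest TAC value, 6.78% of reads outside mitochondrial genes in a TAC saline library, was above the highest sham value of 6.60%. Actc1 was the largest single gene among them, with 41.5% of the members' reads over the 5 libraries of TAC NRG, 41.4% in TAC saline and 34.9% in sham.

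Other genes of the actin filament also differed between the TAC groups and sham. Of 40 other genes of actin filaments, their ends and their anchors, 38 were listed in the files and 33 could be tested. In TAC saline against sham, 12 rose and 2 fell, where 10.7% of all genes passed, 6.47% higher and 4.24% lower. The median log2 fold change of the 33 was 0.24. Xirp2, a Xin repeat protein of the intercalated disc, rose by 1.08 ± 0.13, with 508 ± 124 CPM in TAC saline and 235 ± 17.0 CPM in sham. Tpm4, a cytoskeletal tropomyosin, was 0.73 ± 0.13 higher, Actn1, a non-muscle alpha actinin, 0.72 ± 0.20 and Nrap, a scaffold of assembling myofibrils, 0.70 ± 0.09. The other 8 that rose were Actb, Tpm3, Actn2, Cfl1, Cfl2, Wdr1, Klhl41 and Xirp1. Tmod4, a pointed end capping protein, fell by 0.49 ± 0.14 and Fhod3, a formin needed for cardiac sarcomeres in the mouse, fell by 0.33 ± 0.08. With TAC saline library 1 left out, 9 of the 33 passed in place of 14. With total reads as the only scaling, 14 rose and 0 fell. Without a trend of the spread with level, 8 passed in this comparison.

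Against sham, 12 of the 33 rose in TAC NRG and 3 fell, with a median of 0.22, where 16.1% of all genes passed, 8.74% higher and 7.39% lower. Xirp2 was at 504 ± 116 CPM in TAC NRG against 235 ± 17.0 CPM in sham, a rise of 1.08 ± 0.13. Actn1 rose by 0.72 ± 0.20 and Wdr1, a cofactor of cofilin in filament turnover, by 0.67 ± 0.10. Cap1, an actin monomer binding protein, had the highest value at 1.26 ± 0.41, with 16.3 ± 13.4 CPM in TAC NRG and 5.19 ± 1.80 CPM in sham. Without TAC NRG libraries 4 and 5 it was not among the 15 genes of this list that passed. The others that rose were Tpm4, Nrap, Actn2, Capzb, Cfl1, Cfl2, Klhl41 and Xirp1. Tmod4 fell by 0.63 ± 0.14, Fhod3 by 0.36 ± 0.08 and Daam1, a formin, by 0.32 ± 0.10. Without a trend of the spread, 9 of the 33 passed in place of 15.

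Between TAC NRG and TAC saline, 0 of the 33 passed, with a median of -0.00, where only 1.30% of all genes passed. At an unadjusted p under 0.05 there were 10, where 15.35% of all genes were under it, and limma voom on the recovered reads also called 0. With the filter on low values raised 10 times, 1 gene of this list passed. Cap2 and Daam1, named after their values were seen, did not overlap between the groups, which held for 3.06% of all genes. Cap2, a cyclase-associated protein of muscle, was at 139 ± 5.63 CPM in TAC NRG and 115 ± 9.04 CPM in TAC saline (adjusted p = 0.0643), and Daam1 at 34.1 ± 2.23 and 42.5 ± 5.30 CPM (adjusted p = 0.135). Both TAC comparisons against sham share the sham libraries, so their similar counts are not independent of each other. The summed level of 6 fibroblast markers was 1166 to 1776 CPM in TAC NRG, 1007 to 1543 CPM in TAC saline and 832 to 897 CPM in sham, with 4 of the 6 higher in each TAC group than in sham. The part of this in the higher levels of Tpm2 and of the cytoskeletal genes Tpm4, Actn1 and Cfl1 in both TAC groups was not tested.

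**Figure D5:**
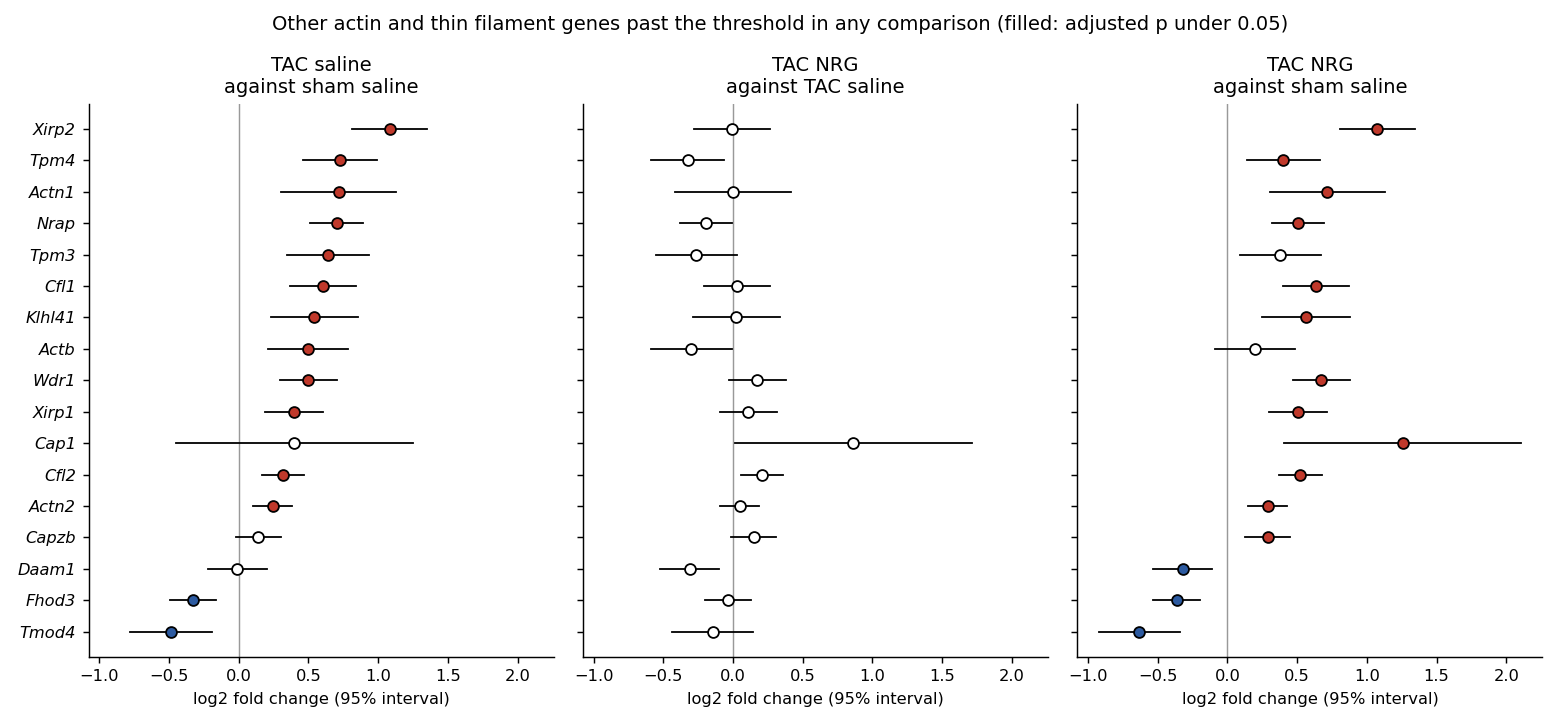
Log2 fold change (point) and 95% interval (line) from limma for the 17 other actin filament genes past the threshold in any comparison, in the same layout as for the members. Xirp2 was the highest in TAC saline against sham at 1.08, Tmod4 the lowest at -0.49, and 0 points were filled between the TAC groups.

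Of 20 genes for factors of the serum response factor, TEAD and MEF2 families and other cardiac regulators, 18 were tested. In TAC saline against sham 1 passed, where 10.7% of all genes did, and the median log2 fold change was -0.02. In TAC NRG against sham 2 passed, where 16.1% of all genes did, and the median was -0.10. Both shares of the list were below those of all genes. Mrtfa, a coactivator of serum response factor, was at 7.06 ± 0.85 CPM in TAC NRG, 8.36 ± 1.79 CPM in TAC saline and 5.24 ± 1.33 CPM in sham, and rose by 0.69 ± 0.21 in TAC saline against sham (adjusted p = 0.0383). Srf, which encodes serum response factor, did not pass, at 0.23 ± 0.12 in TAC saline and 0.15 ± 0.12 in TAC NRG against sham. Relative to sham, in TAC NRG Mef2a fell by 0.33 ± 0.09 (adjusted p = 0.0143) and Mef2d by 0.29 ± 0.08 (adjusted p = 0.0124). Between TAC NRG and TAC saline 0 of the 18 passed, where 1.30% of all genes did. At an unadjusted p under 0.05 there were 3, beside the same 15.35% of all genes.

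The genes whose pattern over the 15 libraries was most like that of Acta1 were found by the root mean square difference of log2 values, each centred on its own mean. The 5 nearest were Tcf19 at 0.43, Gpsm2 at 0.43, Emp1 at 0.44, Scml4 at 0.46 and Vcan at 0.47, where a value of 0 would be an identical pattern. Tcf19 averaged 6.76 CPM in TAC NRG, 13.2 CPM in TAC saline and 2.84 CPM in sham. Gpsm2 averaged 2.84, 3.94 and 0.868 CPM and Scml4 2.75, 3.02 and 0.884 CPM in the same order of groups. Their sham levels were near the limit of detection, as 3 reads make 0.671 to 0.967 CPM by total reads in the sham libraries. Emp1, a membrane protein, averaged 153 CPM in TAC NRG, 146 CPM in TAC saline and 46.2 CPM in sham. Vcan, the matrix proteoglycan versican, averaged 32.6 CPM in TAC NRG, 23.6 CPM in TAC saline and 9.05 CPM in sham. This difference also depends on the size of a change, so a member that changed far less than Acta1 could not lie near it. None of the other tested members was among the 5, and Tnni1 was not in the search.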

How the data were processed

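Left ventricle RNA was measured by BRB-seq in 15 libraries, 5 in each of 3 groups, and all libraries carry the same batch label. The deposited values are log2 values of reads plus 0.5 times a factor per library, as the numbers themselves show; the authors' scaling method, aligner and counter are not named in the labels. The submitters' processing notes name the build GRCm39. Dividing the linear value by 1000 gave CPM, and 98.9% to 99.5% of values per library came within 0.05 of a whole read, which gave the read numbers quoted. The log2 values of all 15 libraries entered a single limma fit (version 3.58.1, R 4.3.3) whose prior spread followed the mean level. A gene needed 10 reads, scaled to the median library, in 5 libraries and 15 reads in all, which kept 11018 genes and left out 4240. Adjusted p-values are Benjamini-Hochberg over the genes tested, at 0.05, two-sided, and the method was tested on simulated data. The smallest planted change was larger than any called for a member other than Acta1 and Tpm2. The simulation therefore does not cover the smaller calls. Ratios within a library were compared by exact two-sided permutation tests over the libraries and adjusted over 12 comparisons. Intervals of shares are exact binomial at 95% and cover counting error only. None of the 50-base stretches in the last 500 bases of each member's longest protein-coding GENCODE transcript occurred in another gene. Other transcript ends of the members were not searched. Promoter windows are from RefSeq on GRCm38.p6 and were not set against coordinates of the files' build. The named genes are the members, the genes of the fixed lists that passed the threshold, with values for the 4 that changed most in each direction, and the 5 genes nearest to Acta1. Cap2 and Srf are named beside these. The members and lists were chosen with earlier results of these data known. Alternatives covered scaling, the filter, the trend, limma voom on total reads, thinning, the groups fitted, a replicate block and libraries left out. Other steps ran in Python 3.11.15 (scipy 1.17.1, numpy 2.4.6, pandas 2.3.3), and matplotlib 3.10.9 drew the figures.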

Additional observations from a re-analysis of the deposited data

Results flagged for a closer look

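TAC NRG library 3 stood apart from its group for Lmod3, at 42.7 CPM, where the other TAC NRG libraries held 59.6 to 66.5 CPM. The log2 ratio of Lmod3 to Lmod2 stood apart in the same library, at -3.98 against -3.29 to -3.04 in the other TAC NRG libraries. These were 2 of 42 groups of 5 libraries examined for a sample far from the rest by Dixon's ratio, and chance gives about 1 such group in 20. Without that library the Lmod3 difference between TAC NRG and TAC saline was -0.33, with a limma adjusted p of 0.0619.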

How the results depend on the processing

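In TAC saline against sham, 726 genes passed without a trend of the spread, 505 at a threshold of 0.01 and 633 to 1494 with a library left out, against 1180 as reported. The count was 697 without TAC saline library 1 and 633 without library 5. In TAC NRG against TAC saline, where 143 passed, the count was 40 without a trend, 94 by limma voom, 77 with only the 2 groups compared, 39 at 0.01, 39 without TAC NRG libraries 4 and 5, and 58 to 229 with a library left out. Between TAC NRG and sham, it was 1176 with the filter raised 10 times and 849 at 0.01, against 1777. The members that passed in TAC saline against sham were 3 at 0.01. Between TAC NRG and TAC saline, 1 member passed with no filter, with thinned libraries or without TAC NRG libraries 4 and 5, 0 passed without a trend, with the 2 groups alone or at 0.01, and 0 to 2 with a library left out. The cause was not tested, apart from the fewer samples of some alternatives and the stricter threshold.

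With the replicate block, 0 members passed in TAC NRG against TAC saline, where Tnnt2 had an adjusted p of 0.0897 and Lmod3 of 0.0625, and Tnni3 had 0.0701 in TAC NRG against sham. Deviations from the group means had correlations of -0.25 to 0.08 over 15 pairs of same-numbered libraries, with 0 over 0.1. Over 60 pairs of different number they were -0.10 to 0.19. The labels do not say whether the numbers pair the samples, and these correlations cannot settle it. The block was not run for the ratios.

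Taken as differences of medians, the log2 ratio of Acta1 to Actc1 was 1.72 in TAC saline and 1.83 in TAC NRG against sham, Tpm2 to Tpm1 was 1.09 and 1.19, Tnni1 to Tnni3 was 1.33 and Lmod3 to Lmod2 was -0.43 in TAC NRG against sham, each with an adjusted exact permutation p of 0.0952. Acta1 to Actc1 then reversed to 0.11 in TAC NRG against TAC saline. By medians the smallest p that 5 against 5 libraries can give is larger than by means, because several splits share the same medians. The loss of these calls by medians cannot be told apart from that limit. Without TAC NRG libraries 4 and 5 the ratios against sham were 1.68, 1.15, 1.60 and -0.723 for Acta1 to Actc1, Tpm2 to Tpm1, Tnni1 to Tnni3 and Lmod3 to Lmod2, with adjusted p of 0.0857, 0.0857, 0.122 and 0.0857. With a library left out, they were 1.78 to 2.04 and 1.55 to 1.80 for Acta1 to Actc1 in TAC saline and TAC NRG, 0.76 to 0.97 and 0.95 to 1.18 for Tpm2 to Tpm1, 1.26 to 1.86 for Tnni1 to Tnni3 and -0.65 to -0.42 for Lmod3 to Lmod2. Each of these calls against sham was lost without some single library, and fewer libraries raise the smallest p that can be reached. The Tnni1 values rest on 11 and 4 reads in TAC NRG and sham, with 0.5 reads standing in for 0, and give no size of a change.

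Values near 0 changed sign. Tpm1 in TAC saline against sham was 0.089 with total reads, 0.019 without mitochondrial genes, 0.088 by voom and -0.057 to 0.0061 with a library left out. Tpm1 in TAC NRG against TAC saline was -0.010, -0.047 and -0.018 under the same settings, -0.076 without TAC NRG libraries 4 and 5 and -0.027 to 0.033 with a library left out. Tpm1 in TAC NRG against sham was 0.079 with total reads, 0.070 by voom and -0.051 to 0.012 with a library left out. Lmod3 in TAC saline against sham was 0.044 with total reads and 0.037 by voom, and Tnnc1 in TAC NRG against TAC saline was -0.017 without TAC NRG libraries 4 and 5. Of 729 member values under the alternatives, 668 kept their direction and side of the threshold, 34 lost the call, 4 gained one and 23 changed sign. The counts for the other actin filament genes under alternatives were chosen after seeing the data.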
